A study of Equus caballus with 9 samples.

Results

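The gene identifiers described here form a consecutive run in the horse count tables, from ENSECAG00000027660 to ENSECAG00000027720. The run lists 51 gene IDs, and 29 of them had at least 10 counts summed over the 9 libraries and are the members of the block, out of 30371 gene IDs in all. The block was chosen by its counts in 1 library of the chondrogenic group, CDM2, where its members dominated. The high levels in CDM2 are therefore given as a description, with no test. Differences are tested only between groups without CDM2.

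Polyadenylated RNA was sequenced from equine mesenchymal stem or stromal cells (MSCs) derived from bone marrow, which can be expanded in culture and taken into several connective tissue lineages. Each of 3 groups had 3 libraries, numbered as in the sample titles. MSC libraries came from undifferentiated cells, ADM libraries from an adipogenic culture and CDM libraries from a chondrogenic culture. All groups share the same labelled tissue, and ADM and CDM differ from MSC by their differentiation. The labels give no animal, breed, sex, age or culture for a library, so the replicates may be technical, and a p-value then refers to technical spread alone. Gene counts ranged from 17260899 in CDM2 to 39331930 in ADM1.

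In sequencing of polyadenylated RNA, every library is a fixed pool of reads, so a group of transcripts that takes a large share leaves fewer reads for all other genes. In cultured stromal cells the most abundant transcripts usually include those of the mitochondrial genome, of ribosomal proteins and of secreted matrix proteins. The files do not pair the IDs with names, and 0 of the 30371 IDs matched the gene table used here, so which of these classes the block holds, if any, was not determined. For the same reason no position, length, sequence or role is given for a member, and the labelled cell types could not be checked against marker genes. Consecutive numbers in an ID do not by themselves give a place in the genome.

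The members fell into abundant and scarce genes. Summed over all libraries, 18 members had at least 1706 counts each and the other 11 had at most 266. Of the 51 IDs in the run, 13 had no count in any library, which allows up to 0.0111 CPM (counts per 1000000 gene counts; 3 counts in 269505301), and 9 had between 1 and 9 counts. Just inside the limit of 10 counts lay ENSECAG00000027702 with 13 and ENSECAG00000027682 with 14. Just outside lay ENSECAG00000027711 with 7 and ENSECAG00000027690 with 6. The 18 abundant members were spread over the numbers 27669 to 27712, where 22 further listed IDs were scarce or had no count. Of the 5 listed IDs on each side of the run, 9 had no count and ENSECAG00000027722 had 21.

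The block held 57.2% of all gene counts in CDM2 and 1.18% to 5.65% in the other 8 libraries. By library, it held 5.65%, 2.56% and 4.003% in MSC1, MSC2 and MSC3. It held 1.18%, 1.86% and 1.90% in ADM1, ADM2 and ADM3. In the chondrogenic group it held 2.202% in CDM1, 57.2% in CDM2 (Wilson 95% interval 57.207% to 57.254%, counting error only) and 4.28% in CDM3. The share in CDM2 was 24.0 times the median of the other 8 libraries (2.38%) and 10.1 times the highest of them, MSC1. In these bulk samples, fewer cells of a type and less RNA per cell cannot be told apart. Reads that overlapped more than 1 gene made up 4.47% of all counted reads in CDM2 and 1.36% to 1.74% in the other 8. Their part in the result was not tested.

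**Figure D1:**
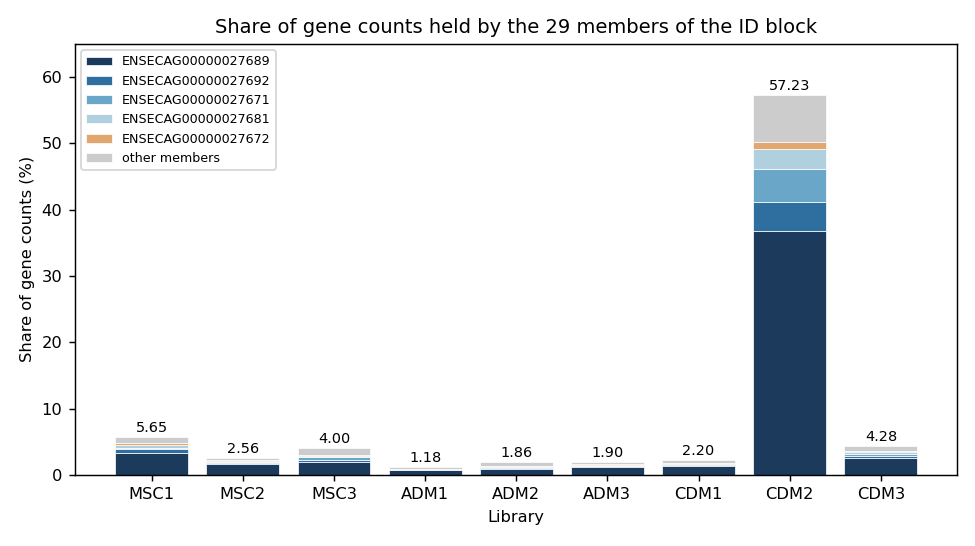
Stacked bars give, for each of the 9 libraries, the percentage of gene counts held by the 5 members with the most counts outside CDM2 and by the other 24 members together; the number above a bar is the block total. CDM2 stands at 57.23% and the other libraries lie between 1.18% and 5.65%, with the 3 ADM libraries lowest.

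The block left 7382447 counts for all other genes in CDM2, or 42.8% of its gene counts, against 25079447 to 38866767 in the other 8 libraries. This is 29.4% of the lowest of those 8. TMM scaling, which sets libraries to each other by the trimmed mean of their gene ratios, gave CDM2 a factor of 0.525, below the range of 0.904 to 1.41 in the others. With the block left out of both the totals and the scaling, its factor was 1.10, within the range of 0.81 to 1.28 of the other 8. Among the 25 genes with the most counts in CDM2, 14 were members. In the other libraries this number was between 1 and 4.

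ENSECAG00000027689 was the most abundant member by counts in all 9 libraries. Its levels were 33019.6, 16212 and 18988 CPM in the MSC libraries, 6853, 8604 and 11333 CPM in the ADM libraries, and 12866, 367615 and 24646 CPM in the CDM libraries. All 3 ADM libraries lay below all MSC and CDM libraries. Among all genes it ranked first in MSC1, CDM2 and CDM3 and between 3 and 13 in the other 6 libraries. It held 46.3% to 63.3% of the block's counts in the 8 libraries other than CDM2 and 64.2% in CDM2.

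ENSECAG00000027692 was at 5526, 1776 and 3401 CPM in MSC, 939.7, 1381 and 1597 CPM in ADM, and 2069, 43345 and 4055 CPM in CDM. Its ADM libraries were again below all others by library totals, but in TMM-scaled CPM MSC2, at 1259.9, lay below ADM2 and ADM3, at 1387 and 1452. ENSECAG00000027681 was at 3340.2, 1620.1 and 1684 CPM in MSC, 622, 925 and 911 CPM in ADM, and 940.1, 29932 and 1884 CPM in CDM. The ADM libraries lay below all MSC libraries, and CDM1 was just above the highest of them, ADM2.

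ENSECAG00000027671 had a different order among the libraries outside CDM2. It was at 2427, 865 and 5005 CPM in MSC, 732, 2341 and 799 CPM in ADM, and 995, 50589 and 3305 CPM in CDM. MSC3 was highest and ADM2 lay above MSC2, so the ADM and MSC libraries overlapped. ENSECAG00000027672 was at 3228, 1342 and 995 CPM in MSC, 315, 759 and 983 CPM in ADM, and 1303, 10990.4 and 2053 CPM in CDM. The highest ADM library, ADM3, was just below the lowest MSC library, MSC3.

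ENSECAG00000027676 differed least between CDM2 and the other libraries among the 16 members with at least 100 counts in every library. It was at 343, 96.5 and 1179 CPM in MSC, 307, 700.1 and 228 CPM in ADM, and 190.2, 1721 and 129.9 CPM in CDM. The level in CDM2 was 6.43 times the median of the other 8 and 1.46 times MSC3, the next highest. Over these 16 members, the ratio of CDM2 to the median of the other 8 ran from this value to 30.3, in ENSECAG00000027671, with a median of 18.6. All 16 were highest in CDM2. Among the 22 members that passed the filter for testing, 20 were highest in CDM2, against 12.3% of all 13571 genes tested. Since CDM2 chose the block, nothing is read from this count.

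**Figure D2:**
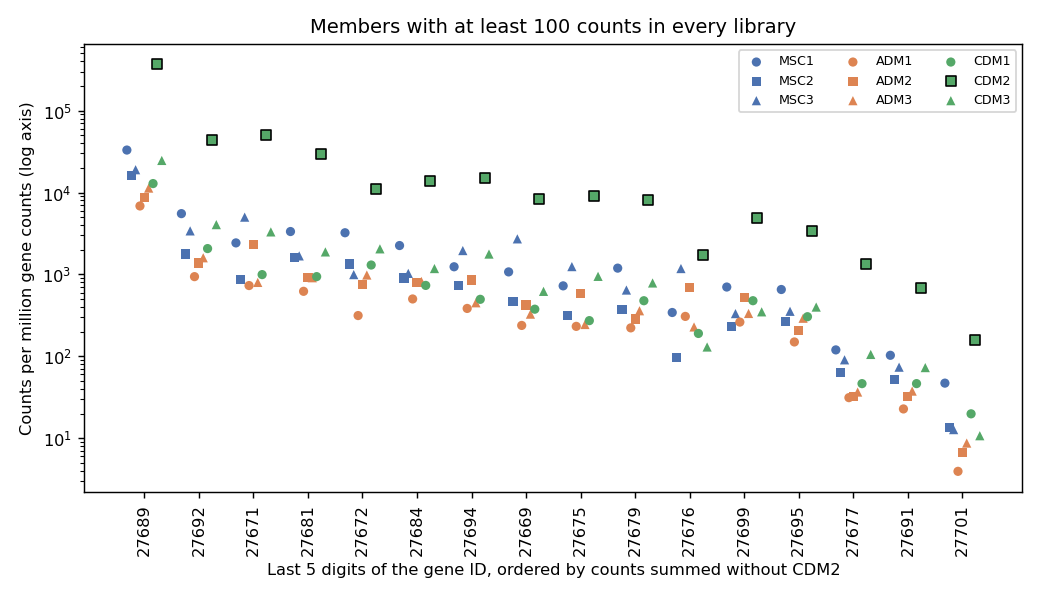
Points give CPM on a log axis for the 16 members with at least 100 counts in every library; colour marks the group, shape the replicate number and a black outline CDM2. CDM2 is highest for each of the 16, at 1.46 times the next library for 27676 and 11.1 times for 27689.

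A pair of abundant members did not reach 100 counts in every library, and both were singled out after their values were seen. ENSECAG00000027698 had 27 counts in ADM1, against 4342 in ADM2, 6203 in ADM3 and 7195 to 13681 in the 5 MSC and CDM libraries other than CDM2, which had 56023. In CPM this was 0.686 in ADM1 and 126 to 496 in the other 7 libraries without CDM2. ADM1 therefore stood alone for this gene. ENSECAG00000027712 had 22 counts in CDM2 and 130 to 310 in the other 8 libraries, or 1.27 CPM against 4.07 to 11.6 CPM. It was the only member among the 18 abundant ones that was lowest in CDM2.

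The 11 scarce members together had 31 to 156 counts in a library outside CDM2 and 351 in CDM2. This was 0.00355% of the block in CDM2 and 0.00452% to 0.0109% in the other 8. ENSECAG00000027680 was the scarce member with the most counts, 143 in CDM2 and 4 to 40 elsewhere. ENSECAG00000027719 had no count in CDM2, which allows up to 0.174 CPM (3 counts in 17260899), and 0 to 21 elsewhere. Over the 29 members, 24 to 29 had at least 1 count in a library.

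The order of the members by counts was similar across libraries. These are orders of counts and not of levels per length, since gene lengths are not used here. Over the 29 members, Spearman's rho between a pair of libraries was 0.916 to 0.983 with or without CDM2. Over the 16 members with at least 100 counts in every library it was 0.70 to 0.991, and 0.885 to 0.974 in the 8 pairs that include CDM2. Members share their libraries, so these values describe the order and carry no p. Within the 16, ENSECAG00000027689 ranked 1 and ENSECAG00000027701 ranked 16 in every library. ENSECAG00000027692 ranked 2 or 3 in all 9 libraries. In the 8 libraries without CDM2, ENSECAG00000027671 ranked between 2 and 6, ENSECAG00000027672 between 3 and 10 and ENSECAG00000027676 between 8 and 13.

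The 16 members with at least 100 counts in every library differed in how steady their share of the block's counts was. Over the 8 libraries without CDM2, ENSECAG00000027691 varied least, from 0.1701% to 0.211% of the block, with an SD of 0.11 on the log2 scale. ENSECAG00000027689 had a log2 SD of 0.16 and ENSECAG00000027692 one of 0.18. ENSECAG00000027676 varied most of the 16, from 0.303% in CDM3 to 3.77% in ADM2, with a log2 SD of 1.38. ENSECAG00000027671 had a log2 SD of 0.73, from 3.38% in MSC2 to 12.6% in ADM2.

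A subset of members took a larger part of the block in the same libraries, MSC3 and ADM2. For ENSECAG00000027669, ENSECAG00000027671, ENSECAG00000027675, ENSECAG00000027676 and ENSECAG00000027694, chosen after their values were seen, the summed share was 30.2% of the block in MSC3 and 26.4% in ADM2. It was 9.66% to 16.01% in the other 7 libraries, where CDM2 had 14.8%. ENSECAG00000027689 was at its lowest in the same 2 libraries, 47.4% and 46.3%. The counts of ENSECAG00000027671, ENSECAG00000027675 and ENSECAG00000027694 per count of ENSECAG00000027689 moved together over the 8 libraries without CDM2. Pearson's r of these log2 ratios was 0.99 for the first and the second, 0.98 for the second and the third, and 0.95 for the first and the third. The ratios share a denominator, which alone gives a positive correlation, and they are given as a description. Not every member followed MSC3, since ENSECAG00000027672 held 2.49% of the block there and 5.71% in MSC1.

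As many proportions in CDM2 lay inside as outside the range of the other libraries. Of the 16 shares of the block, 8 lay within the range of the other 8 libraries, 7 below it and 1, that of ENSECAG00000027689, above it. The share of ENSECAG00000027672 in CDM2 was 1.92%, against 2.49% to 5.92% in the others. ENSECAG00000027676 had 0.301%, just below the 0.303% of CDM3. ENSECAG00000027691, so steady in the other libraries, was at 0.118%, against 0.1701% to 0.211%. ENSECAG00000027671 had 8.84%, 1.65 times the median of the other 8 and within their range of 3.38% to 12.6%. Each library was also set against the other 8 over the 120 pairs of these members. CDM2 lay outside the range of the others in 35 pair ratios, the same number as CDM1, while MSC3 did in 40, ADM2 in 39 and ADM1, the lowest, in 8. By the same comparison of the 16 block shares, CDM2 had the most outside, 8, against 6 in ADM2, 4 each in MSC2 and CDM1, and 1 to 3 in the other libraries.

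**Figure D3:**
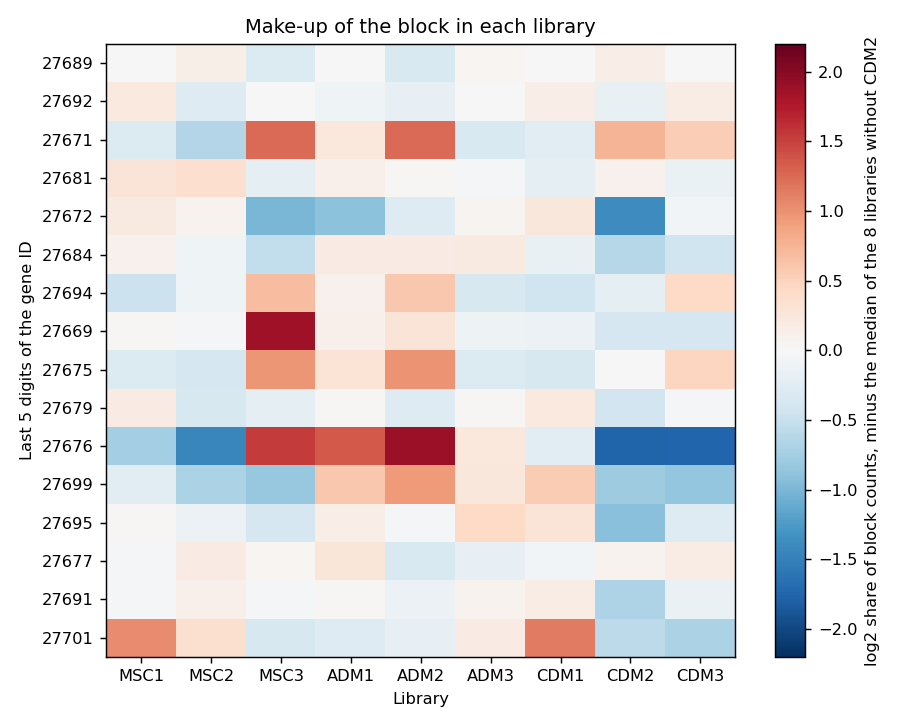
Colours give the log2 share of each of 16 members in the block's counts, minus its median over the 8 libraries without CDM2, for each library. Red cells for 27671, 27675, 27676, 27669 and 27694 stand in MSC3 and, for all but 27669 strongly, in ADM2; the deepest blue cells in CDM2 are those of 27676, 27672 and 27695.

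The comparison of ADM with MSC asks whether the block's genes differed after adipogenic differentiation, in libraries that did not choose the block. The block held 1.65% ± 0.403 of gene counts in ADM and 4.07% ± 1.55 in MSC (SD, n = 3 each), and every ADM library lay below every MSC library. The means of log2 shares differed by -1.26, or 2.40-fold lower in ADM. The exact permutation test (2-sided) gave p = 0.10, the smallest that 3 libraries against 3 allow, and 0.15 adjusted over the 3 comparisons of the block share. The ADM libraries were also the lowest 3 of all 9. The lack of overlap in the summed share depended on ENSECAG00000027689, but the size of the difference hardly did. Without this gene the block held 0.999% in ADM2 and 0.940% in MSC2, so the groups overlapped. The log2 difference was then -1.20 (exact permutation p = 0.20). Taken singly by library totals, 13 members were lower in ADM with no overlap, against 17.9% of all genes, and 0 were higher, against 9.5%. The 13 include ENSECAG00000027689, ENSECAG00000027692, ENSECAG00000027681 and ENSECAG00000027672, and the scarce ENSECAG00000027674 and ENSECAG00000027680. Both scarce genes passed the filter on low counts through MSC and CDM libraries, so their direction follows in part from it. In TMM-scaled CPM 8 members were lower with no overlap, against 13.4% of all genes. ENSECAG00000027671 overlapped, with 2341 CPM in ADM2 and 865 CPM in MSC2.

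By gene, 22 of the 29 members passed the filter on low counts, and 20 of them had a lower fitted level in ADM than in MSC. These 20 include the scarce ENSECAG00000027670, ENSECAG00000027674, ENSECAG00000027680 and ENSECAG00000027686. Those genes passed the filter through MSC and CDM libraries, so their direction follows in part from it. The median log2 difference of the 22 members was -1.17, against -0.03 over all 13571 genes tested. With library totals as the only scaling these medians were -1.35 and -0.26. In edgeR's quasi-likelihood test with all 9 libraries, 0 of the 22 had an adjusted p under 0.05, where 0.0295% of all genes did, 0.0147% higher and 0.0147% lower. The smallest adjusted p among members was 0.363, and 1 member had an unadjusted p under 0.05, against 11.3% of all genes. DESeq2 called 0 members, where it called 4% of all genes with an adjusted p. It gave no adjusted p to the 5 members with the most counts outside CDM2, ENSECAG00000027689 among them. This 0 therefore says nothing about those members. ENSECAG00000027689 had a log2 difference of -1.16 (SE 1.33, adjusted p = 0.845) and ENSECAG00000027681 one of -1.22 (SE 1.26, adjusted p = 0.811).

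The standard errors in this fit include the spread of CDM2. Without CDM2 the log2 difference of ENSECAG00000027689 was -1.20 (SE 0.44, edgeR adjusted p = 0.197) and that of ENSECAG00000027681 was -1.26 (SE 0.38, edgeR adjusted p = 0.147). In that fit 11 of the 23 members tested had an unadjusted p under 0.05, against 19.5% of all genes, and 0 had an adjusted p under 0.05 (smallest 0.112), against 1.23% of all genes. With TMM scaling over all 9 libraries, 8 members were below all MSC libraries in each ADM library, against 13.4% of all genes. In this scaling 0 lay higher, against 14.8%. With library totals the numbers were 13 lower, against 17.9% of all genes, and 0 higher, against 9.5%. Both counts of lower members include the scarce ENSECAG00000027674 and ENSECAG00000027680. These passed the filter on low counts through MSC and CDM libraries, so their lower ADM levels follow in part from it. In the fit with all 9 libraries, ENSECAG00000027699 and ENSECAG00000027712 were the members tested with a positive difference, of 0.04 each.

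The smallest p among members between ADM and MSC was that of ENSECAG00000027674, a scarce gene. It had 17, 5 and 19 counts in the MSC libraries, 0, 1 and 2 in the ADM libraries, and 2, 10 and 5 in the CDM libraries. It passed the filter on low counts through MSC1, MSC3 and CDM2, where it is highest, so its lower level in ADM follows in part from the filter, and no fitted difference is given.

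Proportions within the block did not pass a test between ADM and MSC. When each library's block total was used as its size, the median log2 difference of the 22 members was -0.03, with 10 above 0 and 12 below. The members make up that total, so differences in both directions are in part set in advance. Nothing is therefore read from this median or this split. In edgeR 0 had an adjusted p under 0.05 (smallest 0.849), where 0.28% of all genes were called relative to the block total, 0.125% higher and 0.155% lower. At an unadjusted p under 0.05 there were 0 members, against 4.97% of all genes. ENSECAG00000027699 held 1.24%, 0.907% and 0.830% of the block in MSC and 2.21%, 2.83% and 1.76% in ADM, with no overlap. Its log2 difference relative to the block was 1.19 (SE 1.41, edgeR adjusted p = 0.849). This fit includes CDM2, and its SEs for ENSECAG00000027691 and ENSECAG00000027689 were 1.28 and 1.53. The log2 SDs of their block shares over the 8 libraries without CDM2 were 0.11 and 0.16. A change in proportion could thus be missed, and an unchanged make-up is not read from this test. Without CDM2 the smallest adjusted p among members was 0.172.

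Between CDM and MSC, the block's genes were compared without CDM2, in 2 libraries against 3. The block held 3.24% ± 1.47 of gene counts in CDM1 and CDM3 (SD, n = 2) and 4.07% ± 1.55 in MSC (SD, n = 3), and the ranges overlapped. The log2 difference was -0.33 (exact permutation p = 0.60, 2-sided, adjusted p = 0.60, where 0.10 is the smallest possible). In edgeR 0 of 23 members passed, with a smallest adjusted p of 0.599 and 0 at an unadjusted p under 0.05, where 0% of all genes passed and 9.14% had such an unadjusted p. DESeq2 also called 0 members, where it called 1.07% of all genes. The median log2 difference was -0.11 over these members and -0.03 over all 14055 genes. ENSECAG00000027689 was at -0.08 (SE 0.48, edgeR adjusted p = 0.969). ENSECAG00000027676 and ENSECAG00000027669 had larger differences, -1.72 (SE 1.11) and -1.50 (SE 0.82), with MSC3 the highest of the 8 libraries for both and edgeR adjusted p of 0.646 and 0.599. In TMM-scaled CPM, 1 member, ENSECAG00000027698, was higher in both CDM libraries than in all MSC libraries, against 9.56% of all genes, and 0 were lower, against 10.6%. With library totals 0 were higher, against 3.32% of all genes, and 1, ENSECAG00000027674, was lower, against 17.5%. That gene is scarce and passed the filter through MSC1 and MSC3, where it is highest.

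With CDM2 included, the fitted log2 differences between CDM and MSC ran from -0.58 for ENSECAG00000027712 to 3.84 for ENSECAG00000027670, with a median of 3.06 over the 22 members in the fit. The highest is that of a scarce gene, with 99 counts in CDM2 and 0 to 20 in the other libraries. That gene passed the filter on low counts through MSC1, CDM3 and CDM2, where it is highest. The differences rest on CDM2, which chose the block, and no test is given. ENSECAG00000027689 was at 3.68 with CDM2 and -0.08 without it.

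The ADM libraries were also compared with CDM1 and CDM3. The ADM block share of 1.65% ± 0.403 (SD, n = 3) lay below that of the CDM libraries, 3.24% ± 1.47 (SD, n = 2), with no overlap. The log2 difference was -0.93 (exact permutation p = 0.10, 2-sided, the smallest possible, adjusted p = 0.15). Without ENSECAG00000027689 it was -0.83 (exact permutation p = 0.30), with ADM2 above CDM1. In edgeR 0 of 23 members had an adjusted p under 0.05 (smallest 0.228), where 0% of all genes did. DESeq2 also called 0 members, where it called 4.34% of all genes. Of the 23, 7 had an unadjusted p under 0.05, against 15.2% of all genes, and 21 were lower in ADM. The 7 include the scarce ENSECAG00000027680, which is also among the 21. So are the scarce ENSECAG00000027670, ENSECAG00000027674, ENSECAG00000027686 and ENSECAG00000027719. All of these scarce genes passed the filter on low counts through MSC or CDM libraries, so their direction follows in part from it. The median log2 difference of the 23 members, these genes included, was -1.01, against -0.06 over all genes. ENSECAG00000027677, with the smallest p, was at 31.3, 32.2 and 36.6 CPM in ADM and 46.4 and 105 CPM in CDM1 and CDM3 by library totals. Its log2 difference was -1.21 (SE 0.38, edgeR adjusted p = 0.228). In TMM-scaled CPM 15 members were lower in every ADM library, against 19.9% of all genes, and 0 were higher, against 20.3%. With library totals 12 were lower, against 13.6% of all genes, and 1, ENSECAG00000027676, was higher, against 23.5%. The scarce ENSECAG00000027670 and ENSECAG00000027680 are in both counts of lower members, and ENSECAG00000027674 is in that of TMM-scaled CPM. They passed the filter on low counts through libraries of the other groups, so their lower ADM levels follow in part from it. This comparison and that of ADM with MSC share the ADM libraries.

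**Figure D4:**
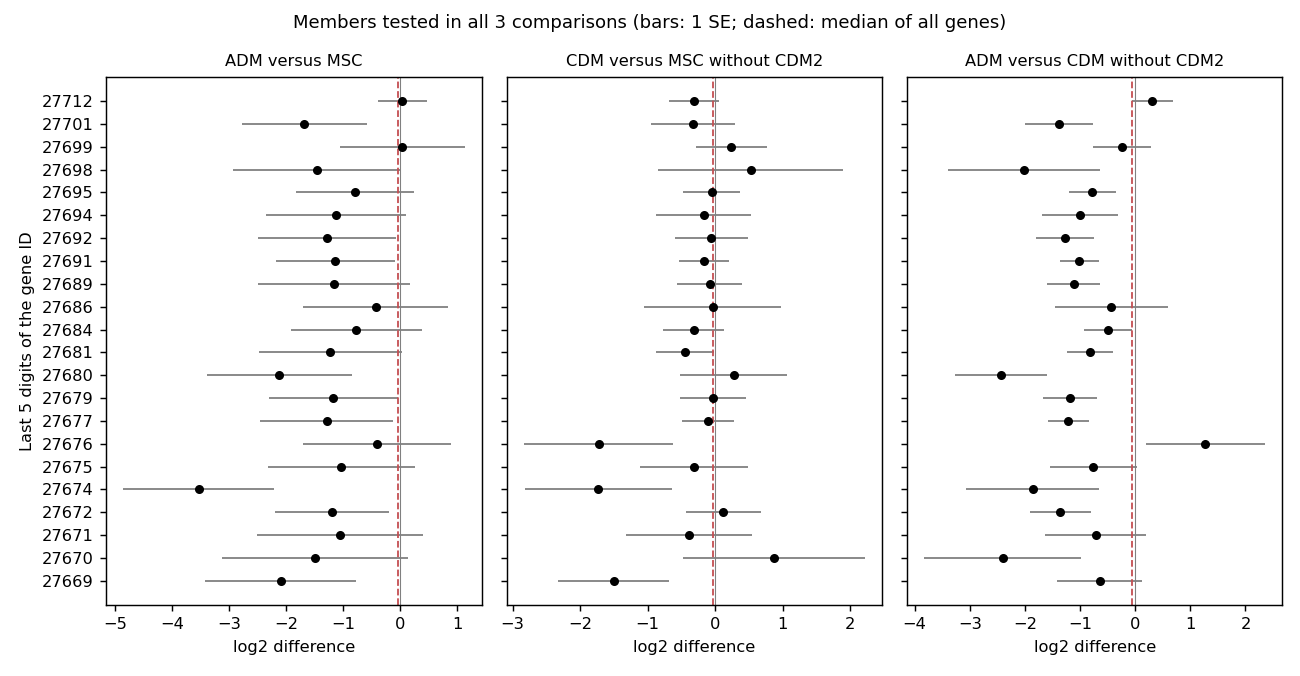
Points give edgeR log2 differences of the 22 members tested in all 3 comparisons, with bars of 1 SE; the solid line marks 0 and the dashed line the median of all genes tested. In ADM against MSC and in ADM against CDM without CDM2 most points lie left of both lines, with medians of -1.17 and -1.01 over the members tested, and in CDM against MSC without CDM2 they lie around 0, with a median of -0.11; none passed.

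Outside the run, the gene most like the block across the 8 libraries without CDM2 was ENSECAG00000029274. Among 13549 genes tested outside the run, its log2 CPM had the highest Pearson correlation with the log2 block share, 0.996 (n = 8 libraries, a description with no p). Its levels were 571, 256 and 378 CPM in MSC, 111, 171 and 197 CPM in ADM, and 209 and 468 CPM in CDM1 and CDM3. In CDM2, which did not enter this choice, it was at 5638 CPM, 24.3 times the median of the other 8. It had 0.918 to 1.09 counts per 100 block counts in the 8 libraries and 0.985 in CDM2. Whether it shares sequence with a member, so that reads could be split between them, is not known from the sources used here.

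ENSECAG00000004257 was second, with a correlation of 0.978, and ran from 11.2 to 26.6 CPM in the 8 libraries. In CDM2 it was at 24.1 CPM, within that range, so its likeness to the block did not extend to CDM2. With all 9 libraries its correlation was 0.717, and that of ENSECAG00000029274 was 0.999, the highest of the 13549. Among members, the same correlation without CDM2 was 0.99 for ENSECAG00000027691, 0.977 for ENSECAG00000027689, 0.052 for ENSECAG00000027676 and -0.176 for ENSECAG00000027712. The members are part of the block share, and the larger a member the more it sets that share.

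**Figure D5:**
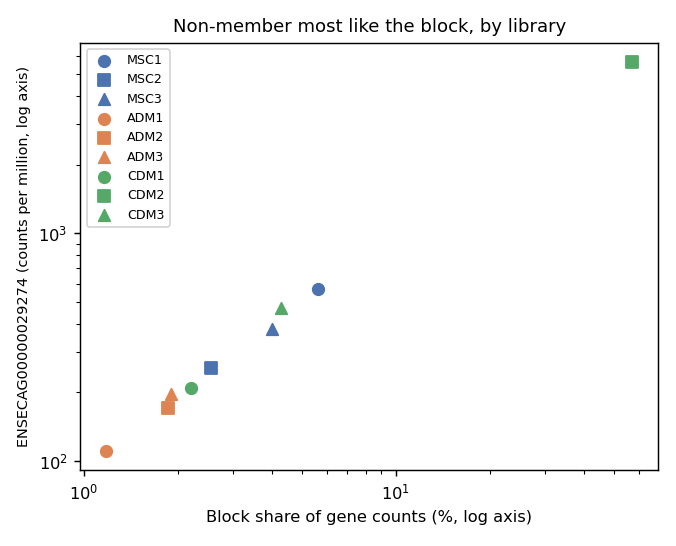
Each point is a library, with the block's share of gene counts in percent on the x axis and ENSECAG00000029274 in CPM on the y axis, both on log axes. The points run from ADM1, at 1.18% and 111 CPM, to CDM2, at 57.2% and 5638 CPM.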

How the data were processed

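The deposited files hold raw counts of reads per gene ID, 1 file per library, with no normalization by the authors. Per the submitters' processing notes, the tools included the aligner STAR (2.7.5c) and the counter HTSeq (1.99.2), with the build equCab3. The annotation release is not given in the sources used here, nor is the strand setting, so reads of overlapping or antisense genes may not be kept apart. The 5 HTSeq summary lines, 24.4% to 36.4% of counted reads, were kept out of gene totals and tests.

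Members, lists and tests were chosen with earlier results of these data known. Values in every library are given for the 5 members with the most counts outside CDM2 and for those whose part of the block differed most in CDM2. Non-members were ranked by correlation with the block share (prior count 2). Marker and pathway lists could not be matched to any ID and are not reported.

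CPM are counts per 1000000 gene counts unless TMM is named. edgeR 4.0.16 in R 4.3.3 was fitted over all genes kept by filterByExpr (13571 with 9 libraries, 14055 without CDM2), with a term per group, TMM scaling and Benjamini-Hochberg adjustment at 0.05. The standard error came from the change and its F statistic. DESeq2 1.42.0, other scalings and filters, a replicate block and left-out libraries were alternatives. The fits were tested on simulated data. Depth was 17260899 to 39331930 gene counts per library, and intervals cover counting error only.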

Additional observations from a re-analysis of the deposited data

Results flagged for a closer look

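Reads outside the gene counts were above the highest MSC library in CDM2 and, for 1 class, in CDM3. Ambiguous reads, which overlap more than 1 gene, made up 4.47% of all counted reads in CDM2, against at most 1.74% in MSC. Per 100 block counts there were 12.3 ambiguous reads in CDM2 and 43.3 to 153 in the other 8 libraries. Reads outside every annotated feature were 24.4% of the total in CDM2 and 23.3% in CDM3, against at most 22.1% in MSC. Reads with more than 1 alignment made up 7.49% in CDM2, against at most 6.72% in MSC. The part of these reads in the block's share was not tested.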

How the results depend on the processing

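In each of the 3 comparisons and in the test of proportions, the number of members with an adjusted p under 0.05 was 0 under every alternative run. For ADM against MSC, DESeq2 gave no adjusted p to the 5 members with the most counts outside CDM2, so its 0 does not cover them. The smallest adjusted p among members was 0.084 to 0.806 for ADM against MSC, 0.42 to 0.992 for CDM against MSC, 0.0995 to 0.591 for ADM against CDM (both without CDM2) and 0.172 to 0.9998 for the proportions. Over all genes the number called moved from 4 to between 0 and 592 (DESeq2; 173 in edgeR without CDM2, 183 with only the ADM and MSC libraries), from 0 to up to 146 (DESeq2), from 0 to up to 594 (DESeq2) and from 38 to between 0 and 1131 (without CDM2). The block's share in CDM2 was 36.4% of all counted reads, in place of 57.2% of gene counts. The lowest Spearman's rho between libraries was 0.70 over the 16 members with at least 100 counts in every library, in place of 0.916 over 29.

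Leaving out 1 library at a time, the log2 difference in block share between CDM and MSC ran from -0.81 to 0.15, above 0 without CDM1, where CDM3 is assumed to vary like the other libraries. Between ADM and MSC it ran from -1.56 to -0.99 and between ADM and CDM from -1.41 to -0.45. For single members, ENSECAG00000027671 ran from -1.86 to 0.045 (above 0 without MSC3) between ADM and MSC, from -1.52 to 0.17 (above 0 without CDM3) between ADM and CDM, and from -0.37 to 0.998 relative to the block. Between CDM and MSC the ranges were -0.43 to 0.20 for ENSECAG00000027689, -0.43 to 0.25 for ENSECAG00000027692, -1.27 to 0.70 for ENSECAG00000027671 and -0.12 to 0.68 for ENSECAG00000027672, which was at -0.14 with library totals as the only scaling. Relative to the block between ADM and MSC they were -0.16 to 0.061 for ENSECAG00000027689, -0.20 to 0.039 for ENSECAG00000027692 and -0.46 to 0.047 for ENSECAG00000027672. The cause of these changes of sign was not tested.

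Libraries with the same replicate number did not deviate together: the correlations were -0.20 to -0.09 for ADM and MSC, -0.46 to -0.39 for CDM and MSC and -0.17 to 0.01 for ADM and CDM. Without CDM2, the deviations of CDM1 and CDM3 mirror each other, so values with CDM come in pairs of opposite sign. Between CDM and MSC libraries with different numbers the correlations ran from -0.03 (CDM1 and MSC2) to 0.46 (CDM3 and MSC1). With the replicate number as a block, 0 members passed, and the smallest adjusted p among members was 0.539, 0.992, 0.546 and 0.989 in the 4 tests. The block changed no call of a member, and over all genes it left 0 genes in place of 4 for ADM against MSC and 0 in place of 38 for the proportions. Precision is limited by 3 libraries per group and, for the scarce members, by depth.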
